A study of Zea mays with 6 samples.

Results

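The 100 genes with the highest transcript abundance in maize leaves were chosen by their mean FPKM over 6 libraries, out of 44303 annotated genes. FPKM scales the fragments of a transcript by its length and by the size of the library, so levels of different genes can be set side by side. The libraries came from leaves of field-grown plants at 25 days after germination, namely 3 wild-type (WT) libraries and 3 from the edf1-D mutant. Both genotypes are in the inbred line W22, and by maize convention a D at the end of an allele name marks it as dominant. No agent was applied to either genotype, as far as the labels say. How the mutation arose, which gene carries it and whether a library pooled several plants are not given in the sources used here. Where replicates were not separate plants, the p-values below measure only the spread between libraries, which may be technical.

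In leaves a small set of nuclear genes is known to supply much of the messenger RNA. In maize, which fixes carbon in mesophyll and bundle sheath cells in turn, these are known to include genes for light-harvesting proteins, photosystem subunits, the small subunit of Rubisco and the enzymes of the carbon-concentrating cycle. This is background, not a result: the deposited tables carry no gene names, and 0 of the IDs were found in the RefSeq gene table of B73, the reference inbred line. Which of the 100 genes belong to these groups is therefore not known here, the labelled tissue could not be checked against marker genes, and genes are called by their rank, with rank 1 the most abundant. The IDs follow the B73 models, while the plants were W22, and where genes have close copies their reads may have been divided among IDs, which makes the level of any one such ID uncertain.

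The 100 genes held between 28.1% and 35.5% of all FPKM in a library. Their share was 33.9% in WT replicate 1, 28.1% in WT replicate 2 and 29.0% in WT replicate 3. It was 33.3%, 35.5% and 33.0% in edf1-D replicates 1, 2 and 3. The means were 30.3% ± 3.12 in WT and 33.9% ± 1.34 in edf1-D (SD, n = 3 each), and the genotypes overlapped through WT replicate 1. Ranks 1 to 10 held 9.99% ± 0.878 in WT and 9.55% ± 0.212 in edf1-D, whereas ranks 11 to 100 held 20.3% ± 2.24 and 24.4% ± 1.52 (SD, n = 3 each). The shares of ranks 11 to 100 did not overlap, with a highest WT value of 22.9% and a lowest edf1-D value of 23.5%. Because these values chose the genes, they are a description and carry no test. In these bulk samples more cells of a type and more RNA per cell cannot be told apart.

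**Figure D1:**
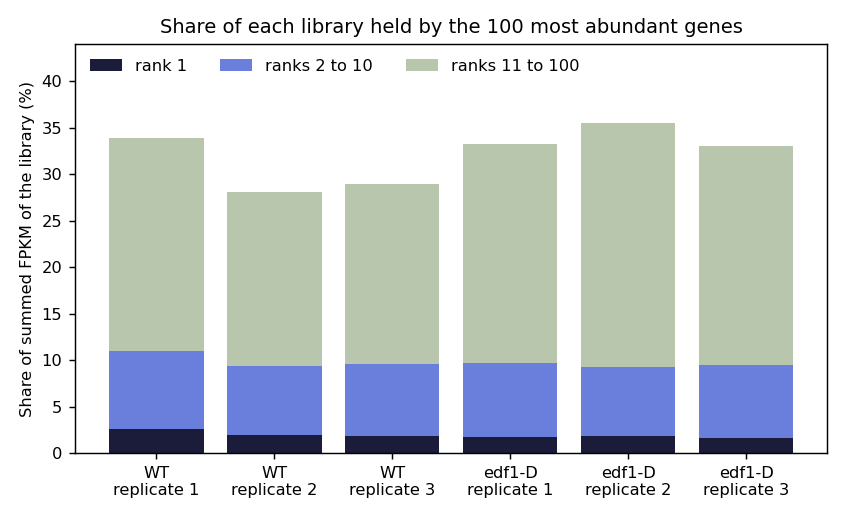
Share of each library's summed FPKM (vertical axis, percent) held by rank 1, ranks 2 to 10 and ranks 11 to 100, stacked, with 1 bar per library. The bars reach 28.1% to 33.9% in WT and 33.0% to 35.5% in edf1-D, and the segment of ranks 11 to 100 is taller in every edf1-D library than in every WT library.

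The leaf transcriptome was thus concentrated in few genes, and to a degree that differed among the libraries of a genotype. The number of top genes needed to reach 50% of a library's FPKM was 331, 510 and 477 in WT replicates 1 to 3, and 334, 277 and 337 in edf1-D replicates 1 to 3. WT replicate 1 lay with the mutant libraries by this measure. The summed FPKM of the 100 genes ran from 120668 (WT replicate 3) to 205806 (WT replicate 1) in WT, and from 156044 (edf1-D replicate 3) to 243397 (edf1-D replicate 2) in edf1-D. FPKM of all genes summed to between 416517 and 686251, lowest and highest in WT replicate 3 and edf1-D replicate 2, and the number of reads behind each library is unknown.

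The 100 genes shared these library differences. Among the WT libraries 86 of them were highest in replicate 1 and 99 were lowest in replicate 3. Among the mutant libraries 93 were highest in replicate 2 and 97 lowest in replicate 3. Over the 18719 genes tested below, 31.4% were highest in WT replicate 1, 66.1% lowest in WT replicate 3, 60.4% highest in edf1-D replicate 2 and 67.9% lowest in edf1-D replicate 3. Most tested genes, 60.7%, were highest in WT replicate 2, where 13 of the 100 were highest. In WT the 100 genes thus differed from most tested genes in their highest library. The mean that chose the genes includes these libraries and favours genes high in any of them, so this too is a description. The median coefficient of variation of the 100 genes was 27.4% in WT and 20.3% in edf1-D, and fell to 10.3% and 8.95% once each library was divided by the summed FPKM of the 100. Over all tested genes the medians were 24.0% and 20.7%, and 26.5% and 19.2% after that division. Dividing the 100 genes by their own sum lowers their spread in part by construction, so this contrast is a description. With each library divided by its whole sum instead, the medians were 13.8% and 7.55% for the 100. For all tested genes they were then 20.9% and 17.6%. The 100 genes make up 28.1% to 35.5% of the whole sum, so this division also lowers their spread in part by construction. The tested genes also lie far lower, with library medians of 4.08 to 6.26 FPKM, so the sets are not alike in level.

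The most abundant gene, Zm00001eb362480, was first in every library. It stood at 15731, 10989.6 and 7978 FPKM in WT replicates 1, 2 and 3, and at 9978, 12920.5 and 7874 FPKM in edf1-D replicates 1, 2 and 3. The genotypes overlapped, with 11566 ± 3909 FPKM in WT and 10258 ± 2535 in edf1-D (SD, n = 3 each). Its share of the library ran from 1.67% to 2.59%, and its mean level was 16.1 times that of rank 100.

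Rank 2, Zm00001eb365040, was second in all WT libraries and 7th, 10th and 8th in the mutant ones. Its values were 10259, 8069 and 5776 FPKM in WT and 4659, 5506 and 3608 FPKM in edf1-D. All mutant libraries lay below all WT libraries, but the log2 fold change of -0.79 ± 0.36 (SE) did not pass the test across all genes (limma adjusted p = 0.281). Rank 9 had the same arrangement, at 4746, 6518 and 3904 FPKM in WT and 2687, 3604 and 2151 FPKM in edf1-D. The difference was -0.85 ± 0.34 (SE) on the log2 scale (limma adjusted p = 0.231), and its place moved from between 3rd and 9th to between 16th and 19th.

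Rank 3 lay the other way. Its values were 4927, 4219 and 3851 FPKM in WT and 6734, 6694 and 6369 FPKM in edf1-D, with no overlap and a close spread in the mutant (6599 ± 200.1, SD, n = 3). On the log2 scale the difference was 0.61 ± 0.30 (SE), with a limma adjusted p of 0.304. Rank 6 stood at 4482, 3466 and 2686 FPKM in WT and at 5551, 6978 and 4251 FPKM in edf1-D, where the lowest mutant library was below the highest WT one. Ranks 4, 5, 7, 8 and 10 overlapped between genotypes, with group means between 3545 FPKM (rank 10) and 4730 FPKM (rank 4) in WT and between 3724 FPKM (rank 10) and 5569 FPKM (rank 4) in edf1-D.

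**Figure D2:**
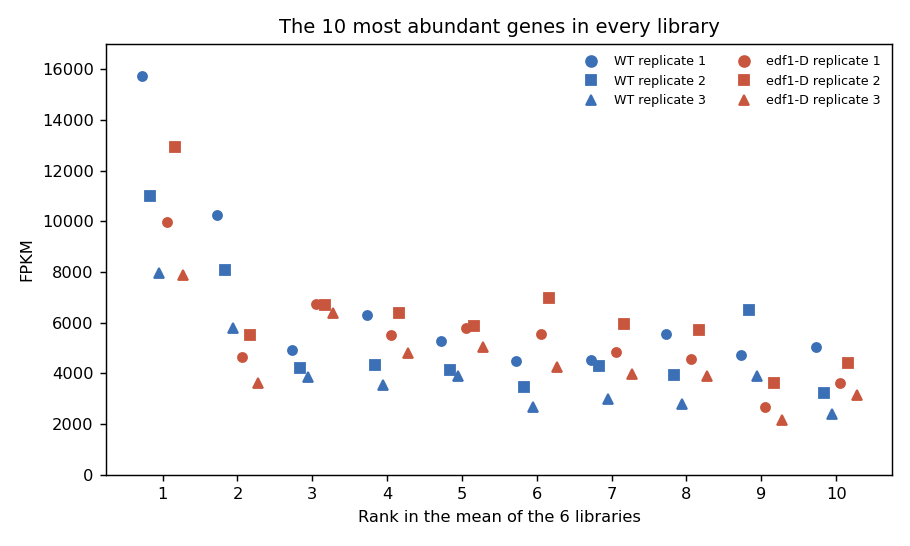
FPKM (vertical axis) of the genes of ranks 1 to 10 (horizontal axis) in each of the 6 libraries, 1 point per library. Rank 1 spans 7874 to 15731 FPKM with both genotypes mixed, ranks 2 and 9 lie lower in all edf1-D libraries, and rank 3 lies higher in all of them.

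Membership was much the same between libraries, in part by construction, since the mean of these libraries chose the genes. The counts of the 100 are therefore a description. Of the 100 genes 77 were in the top 100 of all 6 libraries, and 90 to 92 were in that of any single library. A further 7 genes reached it in 5 libraries, 5 in 4, 8 in 3, 2 in 2 and 1 in 1. In all, 133 genes were in the top 100 of at least 1 library. Ranked by the mean of each genotype alone, 93 of the 100 were in the WT top 100 and 95 in the edf1-D top 100, and the genotypes' lists shared 88 genes. Independent of that choice, pairs of libraries of a genotype shared 87 to 96 of their top 100, and pairs across genotypes shared 81 to 87.

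The limit at rank 100 fell in a dense part of the distribution. Mean FPKM was 697.9, 693.4 and 677.6 at ranks 98, 99 and 100, and 676.1, 669.8 and 661.6 at the next 3 ranks. These values come from the choice itself.

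The order within the 100 was looser than membership. The distance between a gene's best and worst place had a median of 25 places (quartiles 14 and 41.75), with medians of 5 for ranks 1 to 10, 18.5 for ranks 11 to 50 and 37 for ranks 51 to 100. No gene of ranks 1 to 10 fell below 19th place, and 99 of the 100 genes were never below 152nd. As a description, Spearman's rho over the 100 genes was 0.852 to 0.972 for the 6 pairs of libraries of the same genotype and 0.624 to 0.840 for the 9 pairs across genotypes. The lowest values paired edf1-D replicate 2 with WT replicates 3 and 2 (0.624 and 0.669). The 100 genes of a library share its preparation and depth.

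**Figure D3:**
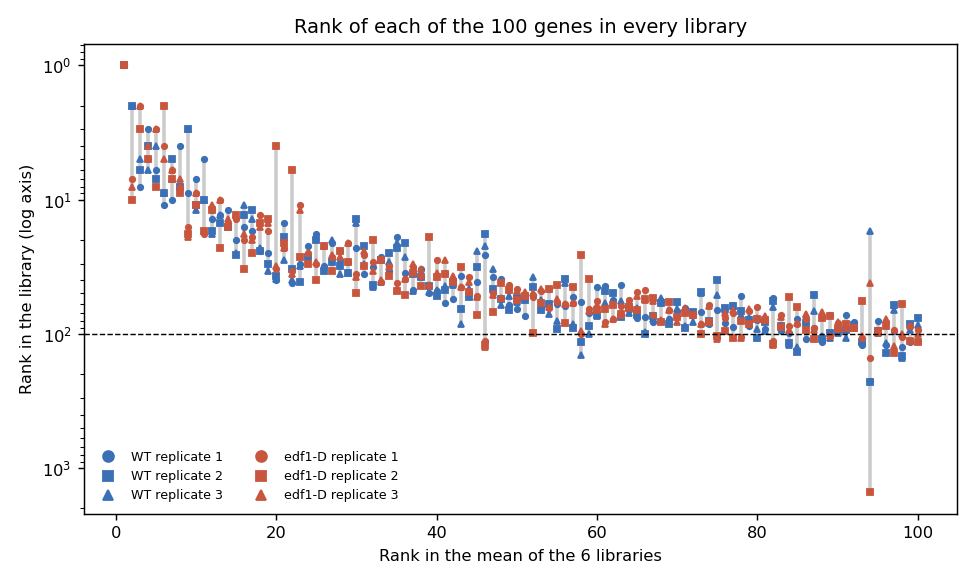
Place of each of the 100 genes in each library (vertical axis, log scale, place 1 at the top) against its rank in the mean of all 6 (horizontal axis). Grey bars join the best and worst place and the dashed line marks place 100. Most bars are short, and the longest, at rank 94, runs from place 17 to place 1519.

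The 5 genes whose place varied most were ranks 94, 58, 46, 98 and 97, with ranges of 1502, 117, 107, 92 and 77 places. Rank 94 went against all others in its pattern. It stood at 369.6, 334.5 and 1757 FPKM in WT replicates 1, 2 and 3 and at 466.7, 64.5 and 1323 FPKM in edf1-D replicates 1, 2 and 3. It was thus highest in the third replicate of both genotypes, where nearly all other members were lowest, and its value in edf1-D replicate 2 was the lowest of any of the 100 genes in any library. The group means of 820.5 ± 812 and 618.2 ± 643 FPKM (SD, n = 3 each) overlapped (log2 fold change -0.81 ± 1.06, SE; limma adjusted p = 0.724), and without edf1-D replicate 2 the fold change was 0.39.

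A set of 8 genes was far higher in edf1-D replicate 2 than elsewhere. In ranks 20, 22, 39, 58, 59, 84, 93 and 98 this library was at least 2 times as high as the next highest, and in 0 of the 100 genes did another library reach that distance. Among all tested genes 1.52% showed it for edf1-D replicate 2 and between 0.118% and 1.77% for the other libraries. The limit of 2 was set after the values had been seen, and the mean that chose the genes includes this library, which favours genes that are high there. Without it the means of ranks 84, 93 and 98 were 620.2, 563.6 and 533.5 FPKM, under the 677.6 FPKM of rank 100. The count of 8 is therefore a description and is not read against the share of tested genes. Rank 20 stood at 1587, 1357 and 1022 FPKM in WT and at 1875, 6559 and 1711 FPKM in edf1-D, and was 4th in edf1-D replicate 2 against 31st to 40th elsewhere. Rank 22 stood at 1519, 1477 and 990.1 FPKM in WT and at 1859.6, 6358 and 1470.0 FPKM in edf1-D. Rank 58 was high in WT replicate 1 as well, with 1279.6, 551.9 and 347.6 FPKM in WT and 691.9, 3048 and 599.2 FPKM in edf1-D. The log2 fold changes of the 8 genes were 0.73 to 1.08 with this library and 0.04 to 0.50 without it.

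On the values as deposited, 1 of the 100 genes was called (limma, adjusted p under 0.05): rank 46, Zm00001eb406410, was lower in edf1-D than in WT. Over all tested genes 2.19% were called lower, and calls under other scalings follow below. Rank 46 stood at 2382, 2184 and 1476 FPKM in WT replicates 1, 2 and 3 and at 641.4, 760.1 and 486.0 FPKM in edf1-D. The groups were far apart, with a WT mean of 2014 ± 476 FPKM and an edf1-D mean of 629.2 ± 137 FPKM (SD, n = 3 each), 0.312 times the WT level. Its place went from 18th to 26th in WT to 113th to 125th in edf1-D, so that it was outside the top 100 of every mutant library. Its edf1-D mean was under the mean of 677.6 FPKM at rank 100, so it was among the 100 only through its WT level, and the choice of genes favours such a difference. On the log2 scale it fell by 1.67 ± 0.29 (SE), with a limma adjusted p of 0.0216. Without WT replicate 2, edf1-D replicate 1 or edf1-D replicate 3 the fold changes were -1.60, -1.70 and -1.50, with limma adjusted p of 0.108, 0.110 and 0.0993. The gene has 1 annotated transcript, and the files do not name it.

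No gene of the 100 was called higher (limma, adjusted p under 0.05), and 14 were higher and 2 lower at an unadjusted p under 0.05. Over the 18719 tested genes 1.45% were called higher and 2.19% lower, and 6.41% and 13.1% had an unadjusted p under 0.05 in these directions. The standard error of the log2 fold change had a median of 0.31 over the 100 genes and 0.22 over all tested genes.

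Most of the 100 nevertheless lay higher in the mutant. The choice of genes bears on this, since 13 of them had a WT mean and 4 an edf1-D mean under the 677.6 FPKM of rank 100 and were members through the other genotype. The fold change was above 0 in 77 and below 0 in 23 of them, against 37.3% above 0 over all tested genes. Its median was 0.43 over the 100 and -0.12 over all tested genes. With 1 library left out the median of the 100 was lowest at 0.20, without WT replicate 3, and 0.29 without edf1-D replicate 2. It was highest at 0.66, without WT replicate 1. In 22 genes all mutant libraries lay above all WT libraries, with log2 fold changes from 0.50 to 1.08, while 8.37% of tested genes did so. In 5 genes, ranks 2, 9, 30, 45 and 46, all mutant libraries lay below, while 17.9% of tested genes did so. A log2 fold change of at least 1 was found for ranks 20, 23 and 66, and one of -1 or less for rank 46 alone, where 2.34% and 3.38% of tested genes reached these sizes.

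**Figure D4:**
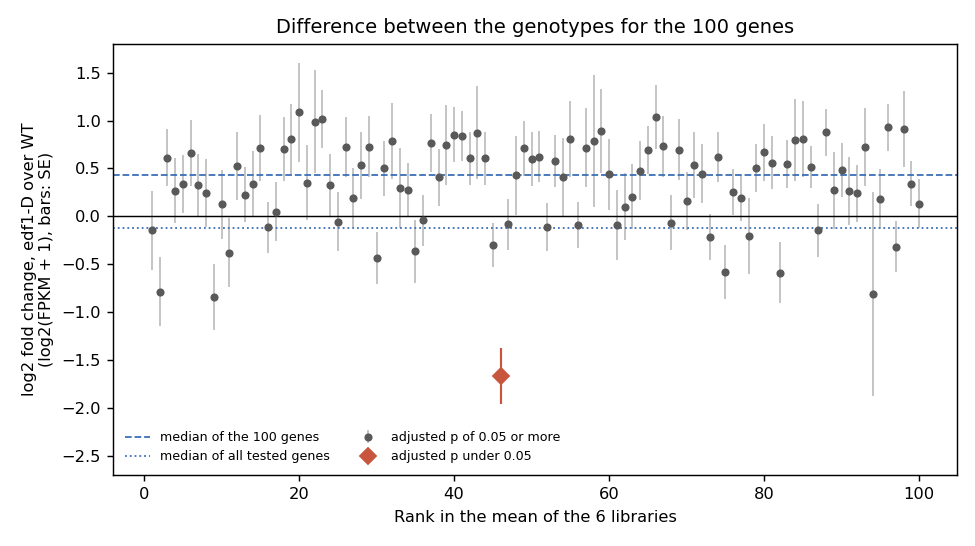
Log2 fold change of edf1-D over WT on the log2(FPKM + 1) scale (vertical axis, bars are SE) for the 100 genes by rank (horizontal axis). The dashed line is the median of the 100 genes (0.43), the dotted line that of all tested genes (-0.12), and the diamond is rank 46 at -1.67, the 1 gene past the threshold.

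The number of calls among the 100 depended on how the libraries were scaled, more than on any other setting. After rescaling each library to the same sum, 26 of the 100 were called higher and 6 lower in edf1-D, where 3.19% and 8.19% of tested genes were called. Median-ratio scaling gave 21 and 1 (6.81% and 4.88% of tested genes). Upper quartile scaling gave 22 and 1 (6.88% and 4.87%). Quantile normalization gave 6 and 11 (5.33% and 5.62%). It makes the distribution of levels alike in all libraries, and thereby removes a shift that the most abundant genes share. The median log2 fold change of the 100 was 0.33, 0.59, 0.59 and 0.09 in these fits, beside medians over all tested genes of -0.22, 0.00, 0.00 and -0.01. In 58 genes the fold change was above 0 and in 13 below 0 as deposited and in all 4 rescalings, and in 29 it turned sign.

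A total of 5 genes were called in all 4 rescalings, 4 higher and 1 lower, where 3.01% and 4.47% of tested genes were. In none of the 4 were 60 of the 100 called, and 84.6% of tested genes. Rank 46 was lower in each, with log2 fold changes from -1.99 to -1.51 (limma adjusted p of at most 0.00368). Ranks 40, 66, 88 and 96 were higher in each. The WT means of ranks 88 and 96, 557.6 and 497.9 FPKM, were under the 677.6 FPKM of rank 100, so both were members only through edf1-D, and the choice of genes favours their direction. Rank 96, Zm00001eb339490, stood at 619.6, 478.3 and 395.7 FPKM in WT and at 922.2, 1062 and 827.5 FPKM in edf1-D, with no overlap. As deposited the log2 difference was 0.93 ± 0.25 (SE), with a limma adjusted p of 0.0899, while the 4 rescalings gave 0.57 to 1.09 (limma adjusted p between 0.00437 and 0.0165). Rank 88 stood at 653.0, 560.8 and 458.9 FPKM in WT and at 981.0, 1219.7 and 871.1 FPKM in edf1-D. Rank 66 stood at 936.0, 631.2 and 472.9 FPKM in WT and at 1366, 1741 and 1016 FPKM in edf1-D. Rank 40 stood at 1429, 1035 and 868.6 FPKM in WT and at 2062, 2312 and 1593 FPKM in edf1-D. In each of these 4 genes the groups were apart as deposited, with limma adjusted p of 0.0899 to 0.165.

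**Figure D5:**
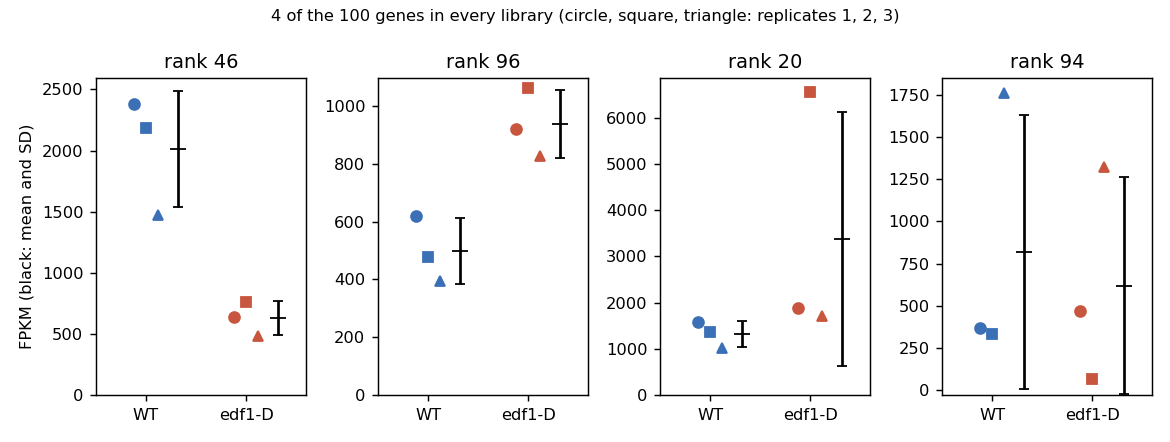
FPKM (vertical axis, scaled separately per panel) of ranks 46, 96, 20 and 94 in the WT and edf1-D libraries, with circles, squares and triangles for replicates 1, 2 and 3 and the group mean and SD in black. Rank 46 and rank 96 separate the genotypes, rank 20 is high in edf1-D replicate 2, and rank 94 is high in the third replicate of both genotypes.

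A further scaling set the levels of the 100 genes against each other. When the size factors were taken from the 100 genes themselves, 7 were called higher (ranks 19, 23, 40, 41, 66, 88 and 96) and 19 lower, where 1.59% and 14.1% of tested genes were called. The lower ones included ranks 1, 2, 9 and 11. On this scale rank 1 had a log2 fold change of -0.55 (limma adjusted p = 0.00515), rank 2 one of -1.19 (limma adjusted p = 5.9e-05), and rank 9 one of -1.25 (limma adjusted p = 0.00284). These values are relative to the other members, whose median log2 fold change this scaling brought to 0.030, so calls in both directions are favoured. The same values chose the members, and ranks 88 and 96 were among them only through edf1-D. The calls are therefore a description, and this scaling was added after seeing the data. As shares of the whole library, 47 of the 100 genes were higher in all mutant libraries and 14 lower in all, beside 8.23% and 26.8% of tested genes. Shares sum to a constant, so the larger mean share of the 100 in edf1-D (33.9%, against 30.3% in WT) lowers the summed share of the rest. How far this bears on the 26.8% was not tested. The choice of genes bears on these counts too, since 13 members had a WT mean and 4 an edf1-D mean under that of rank 100.

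Most of the 100 genes had a simple transcript structure in the annotation. A single transcript was listed for 52, and 28 had 2, 12 had 3, 1 had 4, 6 had 5 and 1 had 6. Genes with 2 or more transcripts made up 48.0% of the 100, 57.2% of the tested genes and 34.6% of all genes. None of the 100 had 10 or more, which is near the share of tested genes that did, 0.192%.

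In most of the members with several transcripts listed, nearly all FPKM went to one of them. The leading transcript held a median of 99.1% of the gene in the 48 members with a choice, and at least 95% in 35 of them (72.9%). It held under 90% in 10 of the 48, and under 80% in 7. In the 5832 multi-transcript genes that averaged 5 FPKM or more and reached 1 FPKM everywhere, the median was 91.9% and 41.8% reached 95%. Leading transcripts held 99.7%, 99.7%, 98.9% and 98.9% in ranks 1, 3, 5 and 10, though up to 5 transcripts were annotated. The leading transcript was the one numbered T001 in 23 members and another in 25. Assigning short reads to transcripts leaves such shares less certain than gene totals.

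The 5 genes with the most even use of transcripts were ranks 76, 16, 23, 99 and 87. In rank 76 the leading transcript, T001 of 5, held 60.2%, 59.1% and 53.8% in WT and 58.3%, 58.9% and 49.5% in edf1-D. In rank 16 T002 of 2 led with 53.1%, 61.9% and 62.5% in WT and with 61.9% and 60.4% in edf1-D replicates 1 and 3, but held 47.8% in edf1-D replicate 2. This was the 1 member whose leading transcript was not the same in all 6 libraries. In rank 99 T001 of 2 held 68.1%, 51.6% and 50.2% in WT and 57.4%, 83.8% and 58.1% in edf1-D, the widest range of the 48 genes, 33.6 percentage points. It was high in WT replicate 1 and edf1-D replicate 2. Rank 23, with 5 transcripts, and rank 87, with 2, had leading shares of 58.3% and 70.6% on average.

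Transcript shares could be tested in 10 of the 100 genes, and 0 of them changed between the genotypes (limma on log2 ratios, adjusted p under 0.05), while 1.16% of the 2671 genes tested did. None of the 10 had an unadjusted p under 0.05, and the lowest adjusted p was 0.629. That value was of rank 57, where the leading share was 78.1%, 75.2% and 75.3% in WT and 79.6%, 82.3% and 81.4% in edf1-D, without overlap. The largest estimated change was that of rank 99, at 0.69 ± 0.62 (SE) on the log2 ratio scale. A p that misses the threshold does not show equal shares. A leading transcript that was constant in WT, constant in the mutant and different between them was found in 0 of the 48 members, and in 0.669% of the 11655 multi-transcript genes with values above 0 everywhere.

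Some of the 100 were neighbours in the order of the IDs. There were 3 pairs of consecutive IDs, made by 5 genes: ranks 37, 95 and 60 in a row, and ranks 100 and 50. How many pairs 100 genes drawn from all 44303 would give was not worked out, so the count is a description. In the row of 3, rank 37 stood at 1214 ± 317 FPKM in WT and 2038 ± 382 FPKM in edf1-D (SD, n = 3 each), with no overlap between libraries. Its neighbour, rank 95, stood at 679.5 ± 224 and 757.8 ± 189 FPKM, and rank 60 at 931.5 ± 466 and 1180.2 ± 219 FPKM (SD, n = 3 each), both with overlap. Whether neighbours in this order are copies of one another was not tested, as no sequence was used here.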

How the data were processed

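RNA of 6 leaf libraries, 3 WT and 3 edf1-D, was sequenced on an Illumina NovaSeq after TruSeq library preparation, per the labels' protocols. Per the submitters' processing notes the tools were RSEM, HISAT2, DESeq2 and Trimmomatic 0.36, with no role stated; no source used here gives the genome build. The deposited values, 1 per transcript and library with 2 decimals, were read as FPKM from their sums, since no header or label names the unit. Depth is therefore unknown, and no interval that needs it is given. Whether the kit kept strand is not given, so antisense reads may not have been told apart.

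Transcripts were summed to 44303 genes, and the 100 with the highest mean were taken. The members, lists and tests were chosen with earlier results of these data known. The 18719 genes that reached 0.5 FPKM in 3 or more libraries were tested with limma 3.58.1 (R 4.3.3) on log2(FPKM + 1) with an intensity trend, without covariate, and Benjamini-Hochberg adjustment over all of them (two-sided, threshold 0.05). Adding 1 understates the fold changes of genes near the filter, and hardly those of the 100 genes. With 0.1 added instead, the median over all tested genes was -0.15 in place of -0.12, and that of the 100 stayed at 0.43. Standard errors and sizes of fold change of the 100 are therefore not strictly comparable with those of all tested genes. The test was run on simulated data with independent noise per gene and no shift shared within a library. That run therefore does not bear on the choice of scaling. Transcript shares were tested with limma on log2((transcript + 1)/(rest of gene + 1)), limited to mean shares between 10% and 90% and to genes that averaged 5 FPKM or more and reached 1 FPKM in each library. The names in the text follow a rule: ranks 1 to 10, called genes, the 5 widest rank ranges, the 3 ranks on either side of the limit, the 5 lowest leading shares and ID neighbours. Ranks 20, 22 and 58, ranks 40, 66, 88 and 96, and the ranks called with size factors from the 100 genes were added after their values were seen. Alternatives covered scaling, pseudocount, filters, variances, threshold, the replicate block and leaving out libraries.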

Additional observations from a re-analysis of the deposited data

How the results depend on the processing

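The counts of members called higher and lower, 0 and 1 as reported, were 26 and 6 with TPM, 21 and 1 with median-ratio scaling over all genes or over genes below rank 100, 22 and 1 with upper quartile scaling, 6 and 11 with quantile normalization, and 7 and 19 with size factors from the members. The last, added after seeing the data, brought their median log2 fold change from 0.43 to 0.030. An adjusted p under 0.01 or no filter left 0 lower. Leaving out 1 library gave 0 to 1 higher and 0 to 1 lower, and leaving out both WT replicate 1 and edf1-D replicate 2, also added later, gave 1 and 1. The higher gene was rank 23. The fold change of rank 1, -0.15, turned to 0.0084 with median-ratio scaling, 0.00031 with its form over genes below rank 100, 0.010 with upper quartile scaling, 0.10 without WT replicate 1 and 0.029 without edf1-D replicate 3. That of rank 94, -0.81, turned to 0.39 without edf1-D replicate 2 and 0.035 without WT replicate 1 as well. None of these positive values passed the threshold. With 1 library left out these ran from -0.39 to 0.10 and from -1.78 to 0.39. The cause was not tested. With 1 library left out the share of FPKM held by the 100 genes was 28.5% to 31.4% in WT and 33.2% to 34.4% in edf1-D. With ranks 1 to 10 taken out of both the genes and the total, the others held 22.6% in WT and 26.9% in edf1-D of what was left. Other choices of members kept 93 to 99 of the 100. Isoform counts stayed at 0 in all settings run. Deviations from the group means of the libraries numbered 1, 2 and 3 correlated at -0.19, -0.01 and 0.35 across genes. WT replicate 3 correlated best with its own number and WT replicates 1 and 2 did not, so whether the numbers pair the libraries is not settled. The replicate block gave 0 higher and 1 lower member. Over all tested genes it called 1.92% higher and 3.16% lower, against 1.45% and 2.19% without it. Planned count models were not run, since no counts were at hand.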
